A study of Leucocroton havanensis with 4 samples.

Results

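Organ preference under nickel was measured in Leucocroton havanensis, a nickel-hyperaccumulating shrub of the Euphorbiaceae from Cuba, by setting root grown with nickel against shoot grown with nickel. Contigs, the numbered sequences of a transcript set, were taken when they had 10 or more reads in either of these libraries, which left 59523 of 65936 (90.3%). A maximum of exactly 10 reads was found for 1578 of them, and another 1093 contigs stood just outside with a maximum of 9. The contigs taken held 99.9% of the root reads and 99.96% of the shoot reads.

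The study sequenced root with nickel, shoot with nickel, root without nickel and shoot without nickel, each as 1 library. All plantlets were grown in vitro on agar-solidified Murashige and Skoog medium for 6 weeks after germination. The growth protocol gives 500 mg/L NiSO4 and is worded alike for every sample, and it is read here as the dose of the nickel-grown samples. The number of plantlets behind a library is not stated in those protocols, and in vitro plantlets are not mature shrubs.

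In a hyperaccumulator, nickel is taken up by the root, loaded into the xylem and carried to the shoot, where it is stored largely in leaf vacuoles bound to organic acids. Root and shoot also differ in their basic work, since leaves carry out photosynthesis, and roots take up water and minerals. In leafy tissue, transcripts of photosynthesis are known as the most abundant messages, and a few of them can take a large part of all reads. The deposited files give contig identifiers without gene names or sequences, so no contig below could be assigned to any of these functions.

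The total counts were 55660570 for root with nickel and 98108920 for shoot with nickel, with 59802565 and 84917997 in root and shoot without nickel. With 1 library in each group, no difference had a replicate check, no test was made, and intervals cover counting error only. The organ labels could not be checked with marker genes, but across the 59523 contigs each nickel library was most like the other library of its organ. Spearman's rho reached 0.96 for the root pair and 0.93 for the shoot pair, against 0.76 for root and shoot with nickel. Fewer cells of a type and less RNA per cell cannot be told apart in such whole-organ libraries.

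The shoot library with nickel is labelled a re-analysis of an earlier library, so the organ difference with nickel cannot be told apart from one of library origin. The pair without nickel shares no library with it and is given beside the main results. Shoot with nickel was at least 32-fold below every other library for 153 contigs that had 1 CPM or more in those libraries (CPM is the read count relative to the scaled library size, on a per-million scale). They were among 23365 contigs with that level in the other libraries, and the way they were picked makes all of them root-preferring.

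With nickel, the shoot-preferring contigs carried far more of their organ's reads than the root-preferring contigs did of theirs. A contig was called organ-preferring when root and shoot differed by 4-fold or more (a log2 ratio of 2 or beyond, or -2 or beyond) and the exact 95% counting interval of the fold excluded values below 1.5. By this rule 7456 contigs preferred root and 7562 preferred shoot, together 25.2% of the 59523 (12.5% and 12.7%). The root-preferring contigs took 14.7% of the root reads (95% exact binomial interval 14.74% to 14.76%) and 1.46% of the shoot reads. The shoot-preferring contigs took 2.95% of the root reads and 32.6% of the shoot reads (95% exact binomial interval 32.55% to 32.57%). Intervals of all read shares here were no wider than 0.013 percentage points on either side. The balance of contig numbers depended on the scaling, and no result is drawn from it: total counts gave 7888 for root and 7053 for shoot, and TMM on abundant contigs gave 6864 for root and 8595 for shoot. Intervals from halved reads gave 6970 and 5677. The 153 contigs that were low in the shoot library with nickel mattered little here, since 7303 root-preferring contigs with 14.6% of the root reads remained without them.

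The same contigs held much the same read shares in the libraries without nickel, which the choice did not use. Those preferring root with nickel took 14.1% of the reads in root without nickel and 2.09% in shoot without nickel. Those preferring shoot with nickel took 2.90% of the reads in root without nickel and 32.1% in shoot without nickel. By the size rule applied to the pair without nickel, 7162 of the 59523 contigs preferred root and 5955 preferred shoot, together 22.0%.

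**Figure D1:**
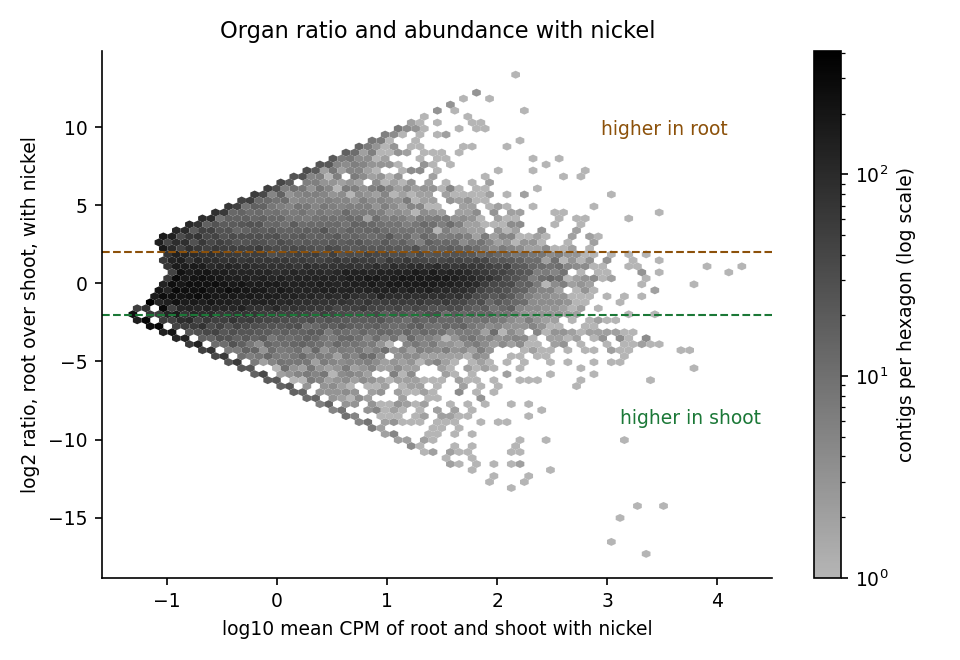
Log2 ratio of root over shoot with nickel (y axis) against the log10 mean CPM of these libraries (x axis), for 59523 contigs binned into hexagons shaded by number on a log scale. Dashed lines mark 4-fold; the straight upper and lower edges are contigs with no read in shoot or in root, and at high abundance single contigs reach further on the shoot side.

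Of the 59523 contigs, 28923 (48.6%) were within 2-fold between the organs with nickel and 29765 without nickel. The latter number includes 558 contigs with no read in either library without nickel. The median log2 ratio was -0.10 with nickel (quartiles -1.13 and 0.93) and 0.051 without nickel (-0.93 and 1.07), and its sign changed with the scaling and filter. The contigs within 2-fold held 52.0% of the root reads and 44.7% of the shoot reads. On the root side reads were concentrated in mild preference. The 6688 contigs that were 2 to 4-fold higher in root took 25.5% of the root reads, the 4090 that were 4 to 10-fold higher took 7.43% and the 2885 that were 10 to 100-fold higher took 5.67%.

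On the shoot side the reads lay further out. The 8621 contigs that were 2 to 4-fold higher in shoot took 12.1% of the shoot reads, the 5198 that were 4 to 10-fold higher took 10.5%, and the 2302 that were 10 to 100-fold higher took 18.1%. The 10 to 100-fold class was thus the largest of the shoot-side classes by reads, although not by number of contigs. It is also wider in fold than the 2 to 4-fold and 4 to 10-fold classes, so its size is not read as a peak. The 10 to 100-fold class held 1.15% of the root reads. In the libraries without nickel the same 2302 contigs took 1.17% of the root reads and 18.2% of the shoot reads.

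**Figure D2:**
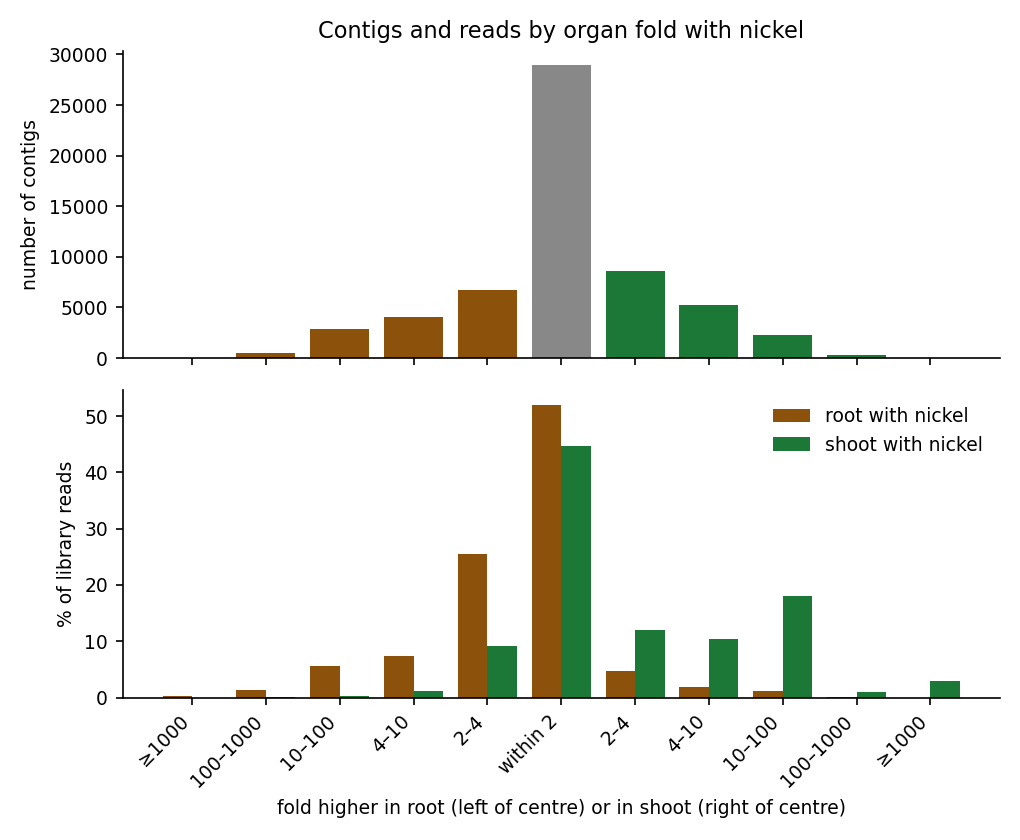
Number of contigs (upper panel) and percent of the reads of root with nickel and of shoot with nickel (lower panel) in 11 classes of fold between the organs, from highest in root at the left to highest in shoot at the right. Contig numbers fall away on both sides of the class within 2-fold. Shoot reads reach 18.1% in the class 10 to 100-fold higher in shoot. The classes are of unequal width, so this is not read as a peak.

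Extreme ratios were found on both sides, again with more reads in shoot. At least 1000-fold differences were counted for 29 contigs higher in root, with 0.301% of the root reads, and for 44 contigs higher in shoot, with 2.94% of the shoot reads. Between 100 and 1000-fold were 452 contigs higher in root and 291 higher in shoot, with 1.35% of the root reads and 1.04% of the shoot reads. These classes rest on log2 ratios with a prior count of 2, so for contigs without reads in an organ they depend on that prior. The median ratios of the most extreme classes were near those without nickel, although single contigs differed widely. The 44 contigs at least 1000-fold higher in shoot had a median log2 ratio of -11.16 with nickel and -11.04 without nickel, and the 29 higher in root had 10.75 and 10.41. As a sum, however, these 29 held 5.2e-05% of shoot reads with nickel and 0.0191% of shoot reads without nickel. The 452 contigs 100 to 1000-fold higher in root had medians of 7.60 with nickel and 5.98 without nickel. Values of the pair that did not choose the class are in general nearer to 0, and contigs chosen as 100 to 1000-fold higher in root without nickel likewise had a median of 6.91 with nickel, against 7.53 without.

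Reads were spread over more contigs in root than in shoot. The upper 50% of the reads lay on 1417 contigs in root with nickel and on 951 in shoot with nickel, and thinning the shoot library to the root total left 951. The counts were 1362 in root without nickel and 737 in shoot without nickel. The 100 most abundant contigs took 19.99% of the root reads and 26.8% of the shoot reads. A single contig led the root with 2.61% of the reads, whereas the leading shoot contig had 1.21%, so the heavier shoot total came from many abundant contigs and not from 1.

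Among the 100 most abundant contigs the organs were unlike. Of the 100 most abundant in root with nickel, 30 preferred root, 0 preferred shoot and 34 were within 2-fold. Of the 100 most abundant in shoot with nickel, 0 preferred root, 71 preferred shoot and 18 were within 2-fold. Choosing contigs by their level in 1 organ favours that organ in the ratio. The choice was repeated in the libraries without nickel and the ratio read with nickel. This keeps counting error of the ratio out of the choice but still favours the organ. The lists chosen with and without nickel shared 90 contigs in root and 85 in shoot. The 100 most abundant in root without nickel then included 27 that preferred root with nickel, and the 100 most abundant in shoot without nickel included 68 that preferred shoot with nickel. The shares of all 59523 contigs were 12.5% and 12.7%. The root and shoot lists with nickel had 23 contigs in common, which took 10.9% of the root reads and 7.00% of the shoot reads and lay between log2 ratios of -1.93 and 1.60. Over 7 scalings and selections the numbers stayed between 25 and 28 in root and between 68 and 71 in shoot for the choice without nickel.

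The ratios of the abundant organ-preferring contigs are given here with and without nickel. These contigs were picked by the call with nickel, so their ratios with nickel start at 4-fold by choice. For the 68 contigs above, the median log2 ratio of root over shoot with nickel was -3.71, with quartiles from -4.75 to -3.23. Without nickel it was -4.03, with quartiles from -4.83 to -3.54. Of the 100 from which they came, 32 were between 8-fold and 16-fold higher in shoot. A further 7 were at least 100-fold higher in shoot, down to a log2 ratio of -17.3. These contigs were seldom missing in root: their median was 9357 reads in root with nickel and 220950 reads in shoot with nickel, and 6 of the 68 had fewer than 100 root reads. The abundant shoot messages were therefore mostly counted in the root library too, at a lower level. The 27 abundant root-preferring contigs had a median log2 ratio of 3.22 with nickel (quartiles 2.57 and 4.35) and 3.04 without nickel. Each of the 27 had at least 346 shoot reads.

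Within the organ-preferring contigs, reads were also unevenly divided. Among the root-preferring contigs, 125 held the upper 50% of the class's root reads, the leading 10 took 2.26% of all root reads and the leading 100 took 6.83%. Among the shoot-preferring contigs, 47 held the upper 50%, the leading 10 took 6.84% of all shoot reads and the leading 100 took 21.2%. Most organ-preferring contigs contributed next to nothing to either total. Those with 100 reads or fewer in their own organ numbered 4062 in root and 3970 in shoot, and they took 0.257% of the root reads and 0.150% of the shoot reads.

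The root-preferring contig with the most root reads was Lhav_v2_contig_27595. It had 374745 reads (6064 CPM) in root with nickel and 27513 reads (270.5 CPM) in shoot with nickel, and without nickel 6971 CPM in root with 302.1 CPM in shoot. Both root libraries were far above both shoot libraries. The contig was 22.4-fold higher in root with nickel (95% exact interval 22.2 to 22.7) and 23.1-fold higher without nickel (22.8 to 23.4). It was the fifth most abundant contig of root with nickel, with 0.673% of its reads.

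The largest root preference among contigs with 10 or more reads in both organs was that of Lhav_v2_contig_47085. Its reads numbered 23032 (372.7 CPM) in root with nickel and 16 (0.157 CPM) in shoot with nickel. In the pair without nickel the counts were 15158 (252.9 CPM) in root and 192 (2.61 CPM) in shoot. The fold was 2370 with nickel (95% exact interval 1459 to 4147) and 96.9 without nickel (84.1 to 112). The root libraries differed less from each other than the shoot libraries did, and the shoot with nickel stood lowest of the 4.

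The shoot-preferring contig with the most shoot reads was Lhav_v2_contig_14, the most abundant contig of that library. It had 17611 reads (285 CPM) in root with nickel and 1188988 reads (11688 CPM) in shoot with nickel, which was 1.21% of that library. Without nickel it stood at 267.7 CPM in root and 24324 CPM in shoot. It was 41.0-fold higher in shoot with nickel (95% exact interval 40.4 to 41.6) and 90.9-fold higher without nickel (89.5 to 92.3). Both shoot libraries were above both root libraries, and the shoot without nickel was the highest of the 4.

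Lhav_v2_contig_72 had the largest shoot preference by the same rule. It had 16 reads (0.259 CPM) in root with nickel and 638258 reads (6274 CPM) in shoot with nickel. In the pair without nickel the counts were 24 (0.400 CPM) in root and 373239 (5072 CPM) in shoot. The fold was 24232 with nickel (95% exact interval 14922 to 42394) and 12667 without nickel (8513 to 19770). It ranked 6 by reads in shoot with nickel and was close to absent from both root libraries.

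The contigs that followed these in reads were alike in direction with and without nickel. The 20 root-preferring contigs with the most root reads ranged from 807 to 6064 CPM in root and from 9.44 to 270.5 CPM in shoot with nickel. Their log2 ratios ran from 2.25 to 7.07 with nickel and from 1.00 to 7.85 without nickel, and 19 of 20 were at least 4-fold higher in root without nickel. The 20 shoot-preferring contigs with the most shoot reads ranged from 0 to 553.6 CPM in root and from 2758 to 11688 CPM in shoot with nickel. All 20 were at least 4-fold higher in shoot without nickel, and 14 of them had log2 ratios between -5 and -3 with nickel.

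Some contigs were counted in 1 organ and not in the other. With nickel, 1883 contigs had 10 or more root reads and no shoot read, and 2696 had 10 or more shoot reads and no root read. The shoot library was deeper. With the shoot library thinned to the root total these numbers were 2242 and 1606, so their order depended on depth. The floor that a count of 0 allows, taken as 3 reads per library, was 0.049 CPM in root with nickel and 0.029 CPM in shoot with nickel. Most such contigs were rare, with medians of 29 root reads and 19 shoot reads, and 40 and 53 contigs had at least 1000 reads. The highest on the root side had 17510 reads and was at least 9609-fold higher in root, and the highest on the shoot side had 448399 reads and was at least 90793-fold higher in shoot, each against the floor per library. Of the 1883 contigs without shoot reads, 1029 had none in shoot without nickel either and 359 had 10 or more there. Of the 2696 without root reads, 1336 had none in root without nickel and 80 had 10 or more there.

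In the most abundant contigs, shoot-preferring ones outnumbered root-preferring ones. In 10 equal classes of mean CPM with nickel, the share past the size rule was 38.1% in the lowest class and 17.2% in the highest. A contig of the lowest class could enter only through an organ in which it had 10 reads, so the share in that class is set in part by the filter and is not read as a difference. The range between the quartiles of the log2 ratio was 2.09 in the lowest class and 1.60 in the highest. In the lowest class 759 contigs preferred root and 1512 preferred shoot, but with the shoot library thinned to the root total, and the filter and classes drawn anew, these were 1305 and 1168. The lowest class then held other contigs, and no direction is read from it. In the highest class, which held 76.2% of the root reads and 78.8% of the shoot reads, 428 contigs preferred root and 597 preferred shoot. Shoot-preferring contigs were more numerous there in all 7 scalings and selections tried, with 476 against 555 by total counts as the closest. In the highest class without nickel the numbers were 419 for root and 630 for shoot.

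**Figure D3:**
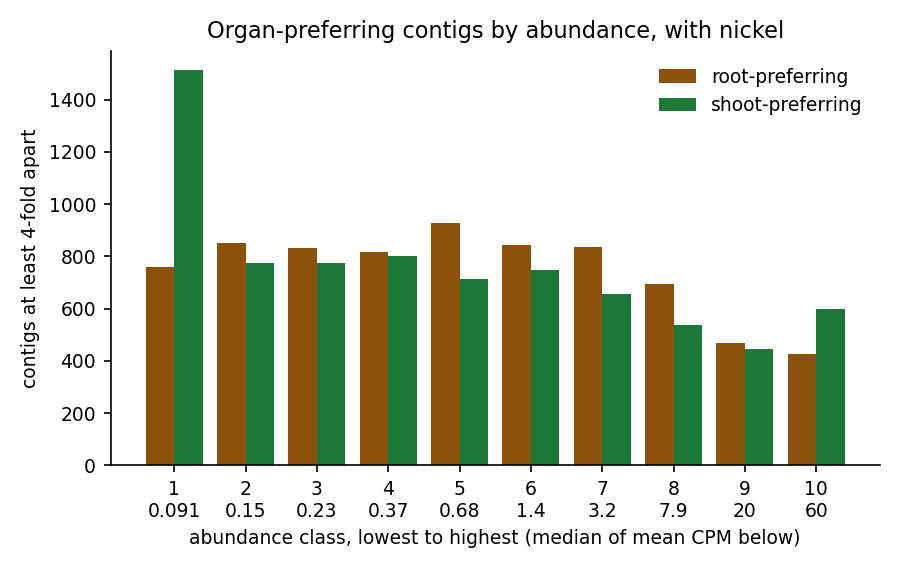
Number of root-preferring and shoot-preferring contigs (y axis) in 10 equal classes of mean CPM of root and shoot with nickel (x axis, lowest to highest). The lowest class has 759 and 1512 and the highest 428 and 597. In the classes between them root-preferring contigs are somewhat more numerous with this scaling. That order is reversed in most of these classes with TMM on abundant contigs, and likewise without the contigs numbered above 63000.

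Between the ends, classes 2 to 9 held more root-preferring than shoot-preferring contigs, with 928 against 714 in class 5. With scaling on abundant contigs this order was reversed in classes 2 to 6 and 9 (754 against 960 in class 2, 842 against 845 in class 5). When contigs with the highest numbers were left out, it was reversed in classes 2, 3, 4, 6 and 9 (595 against 793 in class 4, against 816 and 801 with them). No direction is read from these classes. Among the 13337 contigs with a mean of 10 CPM or more, 1036 preferred root (7.77%) and 1154 preferred shoot (8.65%), and 60.6% were within 2-fold. Without nickel 993 of the same contigs preferred root (7.45%) and 1195 preferred shoot (8.96%), together 16.4%, the same share as with nickel. Of these abundant contigs, the root-preferring ones with nickel held 12.8% of the root reads and the shoot-preferring ones 31.1% of the shoot reads. All members of the classes held 14.7% and 32.6%, so most of the read share of each class lay in its abundant members.

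The organ preference seen with nickel was largely that seen without nickel, with values closer for abundant contigs. The 2 pairs shared no library. Across the 59523 contigs the log2 ratios with and without nickel had a Pearson's r of 0.76 and a Spearman's rho of 0.72, and across the 13337 abundant contigs these were 0.90 and 0.88. These are correlations across contigs, which are not independent replicates. Of the 7456 contigs that preferred root with nickel, 4390 did so without nickel (58.9%, and 61.3% of the 7162 without nickel). Of the 7562 that preferred shoot with nickel, 3899 did so without nickel (51.6%, and 65.5% of the 5955 without nickel). Among abundant contigs these shares rose to 68.5% of 1036 for root and 83.0% of 1154 for shoot. Contigs with few reads carry more counting error, and 558 of the 59523 had no read in either library without nickel. The lower values over all contigs are therefore not read as less stable preference. The contigs with the same preference in both pairs accounted, with nickel, for 11.3% of root reads in the case of root and 30.1% of shoot reads in the case of shoot.

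**Figure D4:**
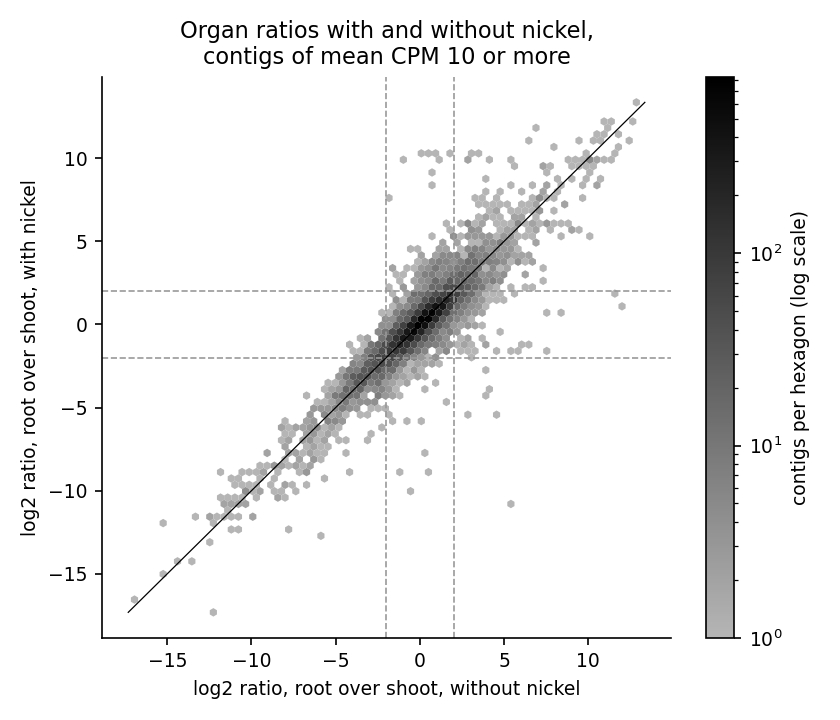
Log2 ratio of root over shoot with nickel (y axis) against that without nickel (x axis) for 13337 contigs of mean CPM 10 or more, binned into hexagons shaded by number on a log scale. Dashed lines mark 4-fold and the solid line equality; most contigs lie along the line, and 7 lie in the quadrant higher in shoot with nickel and higher in root without.

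A preference chosen without nickel was read with nickel in the same way. The 7162 contigs that preferred root without nickel had a median log2 ratio of 2.52 with nickel and 3.06 without nickel, and 91.5% were higher in root with nickel. The 5955 that preferred shoot without nickel had medians of -2.61 with nickel and -2.93 without nickel, and 95.9% were higher in shoot with nickel. The size rule was passed in the same direction by 61.3% and 65.5%, shares that cannot exceed those keeping direction.

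Some preferences were past 4-fold with nickel and small or not measured without it. A total of 1306 contigs preferred root with nickel and were within 2-fold without nickel, and 1541 preferred shoot with nickel and were within 2-fold without. A contig with no read in either library without nickel counts as within 2-fold there. The 59523 contigs included 558 of this kind, and their number among the new preferences is not given here. These new preferences were rare messages, with median mean CPM of 0.307 and 0.172, and 103 and 38 of them reached 10 CPM. For the 103 abundant ones on the root side, the median log2 ratio of with over without nickel was 0.55 in root and -1.66 in shoot. For the 38 on the shoot side it was -0.45 in root and 1.83 in shoot. In 90 of the 103 and 33 of the 38 the shoot libraries differed by at least 2-fold in the direction of the new preference, while the root libraries did so in 23 and 9. Over all 1306 and 1541 new preferences the organs were less unlike. The shoot libraries so differed in 832 and 1072 contigs, and the root libraries in 656 and 754. Such differences were more frequent in shoot among all 13337 abundant contigs too. In root 0.997% were at least 2-fold higher and 1.51% at least 2-fold lower with nickel, and in shoot 3.46% were higher and 5.73% lower. The shares among the newly preferring contigs follow in part from how these were picked, and in the shoot libraries an effect of nickel cannot be told apart from one of library origin.

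The most abundant new root preference had 1302 CPM in root with nickel and 212.7 CPM in shoot with nickel, with 1428 CPM in root and 716 CPM in shoot without nickel. Its log2 ratio was 2.61 with nickel (95% exact interval 2.59 to 2.63) and 0.995 without nickel (0.98 to 1.01). Without nickel it thus lay at the 2-fold limit and was already higher in root. The most abundant new shoot preference had 108 CPM in root with nickel and 474 CPM in shoot with nickel, with 145.5 CPM in root and 272 CPM in shoot without nickel. Its log2 ratio was -2.13 with nickel (-2.17 to -2.10) and -0.90 without nickel (-0.94 to -0.87). This contig too was near the 2-fold limit without nickel, and already higher in shoot. In both cases the root libraries differed less from each other than the shoot libraries did.

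Other preferences were past 4-fold without nickel and small with it. Of the 7162 contigs that preferred root without nickel, 1193 were within 2-fold with nickel. The shoot library with nickel was at least 2-fold above that without in 1033 of them. The root library with nickel was at least 2-fold below that without in 246. Of the 5955 that preferred shoot without nickel, 685 were within 2-fold with nickel. In these, the root library with nickel was at least 2-fold above that without in 449. The shoot library with nickel was at least 2-fold below that without in 267. Among all 59523 contigs, 48.6% were within 2-fold with nickel. Among contigs of 10 CPM or more these losses were 54 of 993 for root and 32 of 1195 for shoot. The shoot libraries differed by at least 2-fold in 47 of the 54 and 26 of the 32, and the root libraries in 7 and 2. These shares too follow in part from how the contigs were picked. Among all 13337 abundant contigs such differences were also more frequent in shoot. In the shoot libraries an effect of nickel cannot be told apart from one of library origin.

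The root-preferring contigs were not evenly placed in the numbering of the transcript set. Of the 2936 contigs numbered above 63000, 2078 had 10 or more reads in either nickel library, and 1940 of these preferred root with nickel (93.4%) and 1 preferred shoot, whereas of the 57445 with lower numbers and enough reads 5516 preferred root (9.60%) and 7561 preferred shoot (13.2%). The limit of 63000 was set from the data. Contigs with these high numbers thus made up 26.0% of all root-preferring contigs and 1376 of the 1883 with no shoot read. They were rare, with a median of 21 reads in root with nickel and 0 in shoot with nickel, and the root-preferring ones took 0.709% of the root reads. Without nickel 1075 of the 2078 preferred root (51.7%), and their median reads were 16 in root and 0 in shoot.

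The numbering also followed read number in the libraries. Spearman's rho between contig number and reads was -0.68 in root with nickel, -0.85 in shoot with nickel, -0.70 in root without nickel and -0.81 in shoot without nickel. Among all 63000 contigs numbered up to 63000, whatever their reads, 5.56% had no read in root with nickel and 0.844% had none in shoot with nickel, against 6.94% and 6.31% in root and shoot without nickel. Among all 2936 above 63000 these shares were 0.443% in root with nickel and 61.4% in shoot with nickel, against 12.3% and 51.8% without nickel. Few contigs were missing from both nickel libraries: 27 had fewer than 5 reads in root and shoot with nickel combined, whereas 5319 had fewer than 5 in the pair without nickel combined. No label or header states how the transcript set was assembled and filtered, and its part in the counts of organ-preferring contigs was not tested. Without the contigs numbered above 63000, 5516 preferred root and 7561 preferred shoot, and the root-preferring contigs took 14.04% of the root reads.

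**Figure D5:**
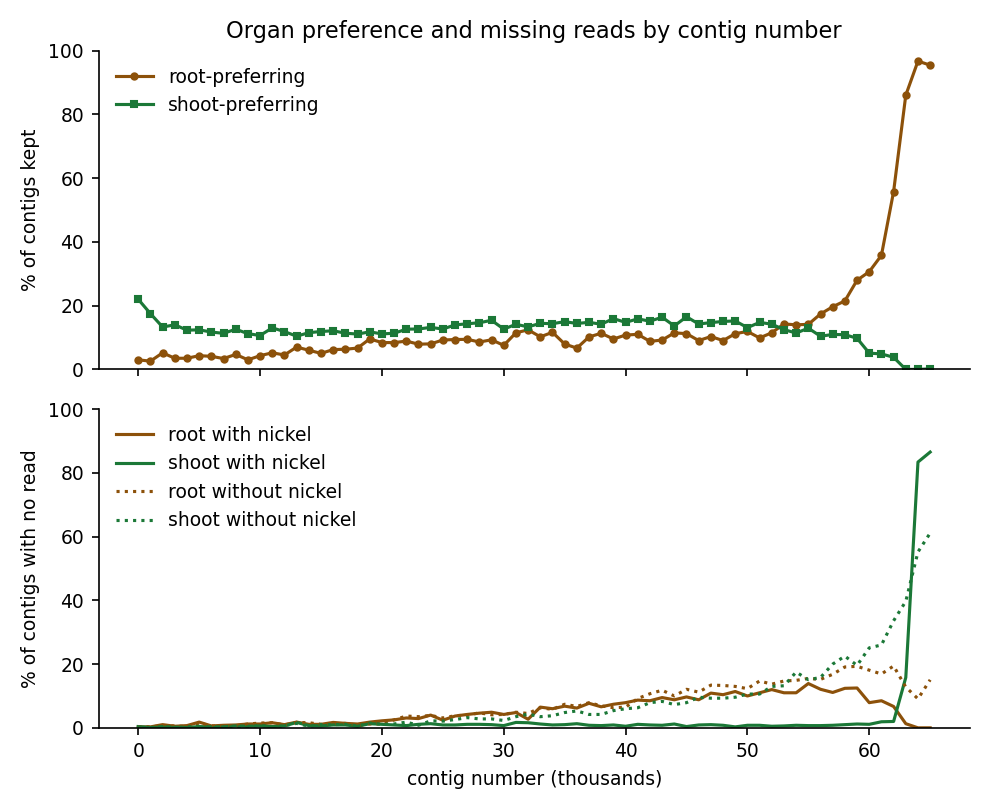
Percent of contigs that were root-preferring or shoot-preferring with nickel (upper panel), and percent of contigs with no read in each of the 4 libraries (lower panel), in steps of 1000 contig numbers (x axis). Above 63000 nearly all contigs taken are root-preferring and most have no read in shoot with nickel, while the share with no read in root with nickel is near 0.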

How the data were processed

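RNA-seq libraries of root and shoot, with and without nickel, were analysed, 1 each. Per the labels' protocols, tissue stabilised in RNAlater gave TRIzol LS RNA, which was DNase-treated, and polyA libraries were made with a stranded Illumina TruSeq kit. The authors deposited read counts per contig for each library, without normalization per the file headers. Not given in the sources used here are the aligner, counter, assembly and filters.

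Contigs with 10 or more reads in either nickel library were kept. TMM scaling used all 4 libraries (edgeR 4.0.16 in R 4.3.3), with factors of 1.11 for root with nickel and 1.04 for shoot with nickel. Log2 ratios used CPM with a prior count of 2, and folds an exact 95% conditional binomial interval (Clopper-Pearson, scipy 1.17.1). The calls follow a size rule and are not a test. The script was tested on simulated data. Named contigs were, in each direction, the organ-preferring contig with the most reads, and the one with 10 or more reads in both organs whose interval lay farthest from 1. Members, lists and rules were chosen with earlier results of these data known. Scaling (DESeq2 1.42.0 size factors among others), filters, prior counts, fold size and depth were varied. Among counts from 1 to 20, 61.6% were even in root with nickel and 58.7% in shoot with nickel, and intervals are too narrow if both reads of pairs were counted.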

Additional observations from a re-analysis of the deposited data

Results flagged for a closer look

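The contigs here had opposite organ preferences with and without nickel, past 4-fold in each pair. With 1 library in each group the difference between the pairs was not tested. Of the 7456 contigs that preferred root with nickel, 62 preferred shoot without nickel. Of the 7562 that preferred shoot with nickel, 71 preferred root without nickel. Both counts are small against the 59523 contigs compared. Of the 13337 contigs with a mean of 10 CPM or more in the libraries with nickel, 7 were opposite, and all 7 were higher in shoot with nickel. Their levels with nickel ranged from 0 to 17.4 CPM in root and from 22.8 to 99.5 CPM in shoot. Without nickel they ranged from 0.968 to 8.62 CPM in root and from 0 to 1.10 CPM in shoot. In the most abundant of these the log2 ratio of root over shoot was -5.46 with nickel and 2.94 without nickel, with 138 and 10119 reads in root and shoot with nickel and 517 and 81 without. The shoot library with nickel was the highest of the 4 in each of the 7. The mean leaves out the libraries without nickel, so this is set in part by the filter, and no direction is read from it.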

How the results depend on the processing

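Of 94 recalculations of contig counts, 72 stayed within 1.5 times the reported value, and the 4 named contigs kept their direction and the 4-fold size in all 28 recalculations. With at least 50 reads, fewer contigs entered: 9028 preferred an organ, 4396 root and 4632 shoot, and 561 and 552 did so while within 2-fold without nickel. An 8-fold threshold gave 7605, of which 4176 were root and 3429 shoot; 2232 and 1849 were shared with the pair without nickel, and 592 and 400 were within 2-fold there. A mean of 10 CPM gave 2190, of which 1036 were root and 1154 shoot, with 710 and 958 shared and 103 and 38 within 2-fold. New shoot preferences were 837 with intervals from halved reads and 938 with a prior count of 5. Contigs with shoot reads alone were 1606 after thinning.

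The share of root reads in root-preferring contigs and of shoot reads in shoot-preferring ones, reported as 14.7% and 32.6%, was 15.0% and 32.1% by DESeq2 size factors, 15.6% and 31.7% by total counts, 14.8% and 32.4% by TMM over the nickel pair, 14.6% and 32.5% with at least 50 reads, 14.8% and 32.6% with a prior count of 0.5, 14.7% and 32.5% with 5 and with halved reads, 8.76% and 25.3% with 8-fold, 14.8% and 32.6% after thinning and 12.8% and 31.1% with 10 CPM. Added after the data were seen, TMM on abundant contigs gave 13.5% and 34.4%, and shoot without nickel in place of shoot with nickel 12.95% and 36.3%; without contigs numbered above 63000 the root share was 14.04%. The shoot share was thus the higher in every recalculation named here.

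The median log2 ratio, reported as -0.10, turned to 0.010 after thinning, 0.15 with 10 CPM and 0.084 with the shoot library without nickel. It was -0.053 by DESeq2 size factors, -0.0048 by total counts, -0.063 without a filter, -0.057 with at least 50 reads, -0.25 with TMM on abundant contigs, and -0.16 without contigs numbered above 63000. TMM on abundant contigs thus shifted the median by -0.15. No paired analysis was possible because each group held 1 library, and for the same reason no replicate could be left out. Marker lists could not be formed without gene names. Depth limits contigs near the floor of 3 reads.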
